A study of Mus musculus and Homo sapiens with 12 samples.

Results

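The genes of erythroid and early blood cell identity described here, GATA1, GATA2, TAL1, LMO2, LDB1, KLF1, ZFPM1, NFE2, GFI1B and RUNX1, were followed in chromatin-associated RNA (caRNA, the RNA kept in the chromatin fraction of a cell). They were a given list, matched by Ensembl identifier, and made up 10 of the 58676 genes counted in K562, an established human leukaemia cell line. The mouse genes of the same symbols, 10 of the 54446 genes counted in mouse embryonic stem cells (mESC), served as the contrast. All cells were labelled wild type (WT), and the library titles name no treatment. The study compared caRNA pulled down with an antibody against 5-methylcytosine (m5C-IP) with the same RNA before pull-down (Input), so that 12 libraries fell into 4 groups of 3. K562 cells were listed as grown in medium with 10% serum and 1 μg/mL puromycin. The paper's methods give puromycin to its virus-transduced K562 lines and do not name it for WT K562. The mESC medium held 15% serum, LIF, 3 μM CHIR99021 and 1 μM PD0325901, and the cells were passaged on gelatin to clear feeder cells. The study's legends call the replicates behind its genome-wide data biological. The labels do not say whether the 3 libraries of a group came from separate cultures, and p-values measure the spread between these libraries. Between the K562 Input libraries that spread was near counting error, with a chi-square per degree of freedom of 0.912 to 1.03 over genes.

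As background, GATA1 and GATA2 are zinc finger factors that bind GATA sites in DNA, GATA2 in blood progenitors and GATA1 in red cell and megakaryocyte precursors. TAL1 is a basic helix-loop-helix factor that sits with GATA1 or GATA2 in one complex, held together by the bridging protein LMO2 and by LDB1, which can join enhancers to promoters. KLF1 binds CACCC boxes of globin and other red cell genes, NFE2 is the blood-restricted subunit of a factor that acts at the globin locus, and ZFPM1 (FOG1) is the cofactor through which GATA1 both activates and represses. GFI1B is a repressor needed for red cell and platelet formation. RUNX1 founds definitive blood formation and is, like TAL1 and LMO2, a recurrent target of rearrangement in leukaemia. K562 came from a chronic myeloid leukaemia in blast crisis and keeps features of red cell precursors, whereas embryonic stem cells precede the blood lineages.

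In K562, each Input library held 10477119 to 11865285 gene counts and each m5C-IP library 93110 to 111286. In mESC these totals were 29007088 to 34752646 and 473398 to 592324. Levels are CPM (counts per 1000000 counts in genes), and 3 counts stood for 27.0 to 32.2 CPM in K562 m5C-IP but for 0.253 to 0.286 CPM in K562 Input. Counts covered whole gene spans, introns included, and used the strand of the read. Of 157 mouse protein-coding genes lying in an intron of 1 other gene on the same strand, 156 had no Input count, against 28.4% of genes in an intron of an opposite-strand gene and 20.3% of genes without overlap. Mouse Zfpm1 was listed at 0 in all 6 mESC libraries and lay with 100% of its span under the same-strand gene model Gm20388. Its 0 was therefore not read as a level, and 9 members were compared between the lines. None of the other 19 member genes had more than 1.68% of its span under a same-strand gene.

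The label calls K562 a lymphoblast cell from bone marrow. Of 8 B and T lymphocyte markers, CD7, CD79B and MS4A1 were at 0 in all K562 libraries, and the sum over all 8 was 1.53 to 3.12 CPM in Input and 9.26 to 53.9 CPM in m5C-IP. CD79B had 73.6% of its span under a same-strand gene. Of 7 globin and other red cell markers, 5 were above 0 in K562 Input and summed to 9.10 to 11.1 CPM. HBE1 and HBG2 were at 0, and both lay with 100% of their span under same-strand genes. Of 8 pluripotency markers, 7 were above 0 in mESC Input, summing to 1613 to 1637 CPM, with Sox2 at 0 and wholly under a same-strand gene. Of 8 fibroblast markers of feeder cells, 6 were above 0 in mESC Input, at 53.7 to 55.9 CPM in sum, with Lum and S100a4 at 0.

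The first comparison asked how much of each factor's RNA was on chromatin before pull-down. In K562, 8 of the 10 members stood among the genes with the densest caRNA: per kb of gene span, their mean Input CPM was above that of 96.1% to 99.2% of the 14459 tested genes with an annotated span. GATA1 was highest, at 11.2 ± 0.170 CPM per kb (SD, n = 3), followed by NFE2 at 10.2 ± 0.156, KLF1 at 9.89 ± 0.329 and TAL1 at 9.41 ± 0.293 CPM per kb. The ranges of NFE2 and KLF1, and those of KLF1 and TAL1, overlapped, whereas GATA1 stood above NFE2 in all libraries. Then came LDB1 at 8.45 ± 0.244, GATA2 at 7.66 ± 0.121, LMO2 at 6.67 ± 0.0591 and ZFPM1 at 5.95 ± 0.108 CPM per kb, with no overlap between neighbours. GFI1B (1.33 ± 0.0145 CPM per kb) and RUNX1 (1.20 ± 0.0154 CPM per kb) were lower and near the middle, above 57.0% and 53.5% of tested genes. RUNX1 nevertheless held the most counts of the 10 in every K562 Input library, since its annotated span is 1217 kb, against 2.78 kb for KLF1. The order depended on the length used. Per kb of exonic length RUNX1 was highest at 93.8 CPM, followed by ZFPM1 at 80.9, LMO2 at 77.2 and GATA1 at 56.0 CPM. NFE2 had 38.6, KLF1 17.0 and GFI1B 10.4 CPM per kb by that length.

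In mESC the order was another. Ldb1, which acts in many tissues, had 7.60 ± 0.173 CPM per kb (SD, n = 3) and stood above 96.2% of the tested genes. The other 8 measurable members lay between 0.00845 CPM per kb for Gfi1b and 0.162 CPM per kb for Klf1, above 15.3% to 38.6% of tested genes. Below Klf1 came Gata2 at 0.144, Gata1 at 0.0349, Nfe2 at 0.0321, Runx1 at 0.0288, Lmo2 at 0.0184 and Tal1 at 0.0146 CPM per kb. Among these, Klf1 and Gata2, Gata1 and Nfe2, Nfe2 and Runx1, Lmo2 and Tal1, and Tal1 and Gfi1b overlapped in range with their neighbour.

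**Figure D1:**
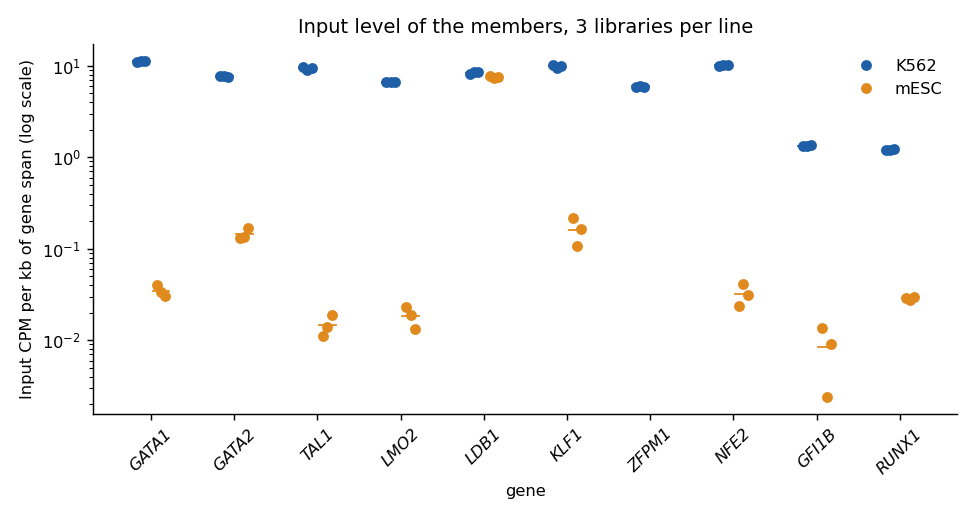
Input CPM per kb of gene span (vertical axis, log scale) for the members in K562 (blue) and mESC (orange), with 1 point per library and a line at the mean of 3. LDB1 lies near 8 CPM per kb in both lines (8.45 and 7.60), the other 8 members measured in both lie far lower in mESC, and mouse Zfpm1 is left out because its reads were not counted to it.

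All 9 members measurable in both lines were higher in K562 (edgeR quasi-likelihood test with Benjamini-Hochberg adjustment, scaled to exonic length), where 40.0% of the 12933 tested genes were called higher, 53.8% lower and 93.8% in either direction. With the whole gene span as length, which matches how the reads were counted, 9 of 9 were again higher, against 36.2% of all genes called higher, 57.5% lower and 93.7% in either direction. Over the members the median log2 difference was 7.48 by exonic length and 7.30 by span, beside -0.37 and -0.54 over all tested genes.

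TAL1, the helix-loop-helix member, differed most: 1825, 1670 and 1586 counts in the K562 Input libraries stood against 5, 7 and 10 in mESC, a log2 difference of 8.96 (SE 0.095, edgeR adjusted p = 8.77e-48), or 497-fold by exonic length. LMO2, the bridging protein, had 2679, 2560 and 2337 counts in K562 and 16, 15 and 11 in mESC, a log2 difference of 8.58 (SE 0.074, edgeR adjusted p = 3.07e-51). NFE2 differed by 8.42 (SE 0.10), GATA1 by 7.71 (SE 0.090), GFI1B by 7.48 (SE 0.17), GATA2 by 5.92 (SE 0.074) and KLF1 by 5.59 (SE 0.15) on the log2 scale. In none of these did a K562 value come near an mESC value. By span, GATA1 differed by 8.33 and TAL1 by 9.28.

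RUNX1 was the member for which the length mattered most. Its log2 difference was 7.45 (SE 0.028) by exonic length, 175-fold, and 5.39 (SE 0.032) by span, 41.9-fold, since the human span is 1217 kb and the mouse span 225 kb. LDB1 differed least. Its K562 Input values of 114, 120.2 and 118 CPM lay close to 106, 101 and 104 CPM in mESC, and the log2 difference was 0.47 (SE 0.032, edgeR adjusted p = 8.38e-18) by exonic length but 0.16 (SE 0.031, edgeR adjusted p = 1.04e-05) by span. Fewer transcripts of a gene and transcripts that stay less on chromatin cannot be told apart in such values. Cell line, species and gene annotation also differ together between K562 and mESC, and cannot be told apart in this contrast.

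The start regions of GATA1 and TAL1 are shown because these 2 genes were the densest and the most different of the factors that bind DNA themselves within the complex. Capitals mark GATAA and CACCC on either strand (TTATC and GGGTG are their reverse complements), the core of a GATA site and the box that KLF1 binds, and the 2 motifs do not overlap each other. Each window runs from 250 bases before to 50 bases after a start, 5′ to 3′ on the gene's strand. The human windows (GRCh38 sequence, GENCODE 44 starts) are chrX:48786340-48786639, plus strand, for GATA1 and chr1:47232176-47232475, minus strand, for TAL1. The mouse windows (RefSeq, GRCm38.p6) are chrX:7967861-7968160, minus strand, for Gata1 and chr4:115056176-115056475, plus strand, for Tal1, the latter 1 of 2 Tal1 windows listed. Of the 10 mouse symbols, 8 matched a RefSeq window, and Lmo2 and Nfe2 were not matched.
GATA1: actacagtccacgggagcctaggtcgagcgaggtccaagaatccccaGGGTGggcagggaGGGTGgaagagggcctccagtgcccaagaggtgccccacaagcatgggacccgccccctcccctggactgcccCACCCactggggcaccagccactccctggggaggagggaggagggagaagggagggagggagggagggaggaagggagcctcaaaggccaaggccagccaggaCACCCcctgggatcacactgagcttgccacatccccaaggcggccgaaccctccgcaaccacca
Gata1: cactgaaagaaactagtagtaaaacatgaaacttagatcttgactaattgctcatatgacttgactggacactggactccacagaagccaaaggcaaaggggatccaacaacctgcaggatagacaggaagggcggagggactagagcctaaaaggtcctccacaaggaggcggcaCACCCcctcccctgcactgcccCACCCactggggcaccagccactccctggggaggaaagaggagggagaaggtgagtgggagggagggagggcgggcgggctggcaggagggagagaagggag
TAL1: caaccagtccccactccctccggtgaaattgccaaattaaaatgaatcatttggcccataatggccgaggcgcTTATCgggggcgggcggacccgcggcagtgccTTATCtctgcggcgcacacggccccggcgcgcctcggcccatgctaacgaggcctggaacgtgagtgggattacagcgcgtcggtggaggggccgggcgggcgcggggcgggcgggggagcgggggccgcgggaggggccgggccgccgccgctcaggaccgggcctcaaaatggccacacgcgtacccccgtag
Tal1: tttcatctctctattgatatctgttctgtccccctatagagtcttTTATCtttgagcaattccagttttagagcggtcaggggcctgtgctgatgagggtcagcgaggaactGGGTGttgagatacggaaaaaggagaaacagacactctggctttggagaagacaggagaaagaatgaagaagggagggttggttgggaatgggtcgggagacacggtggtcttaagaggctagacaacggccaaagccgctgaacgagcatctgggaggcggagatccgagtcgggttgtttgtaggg
The GATA1 windows held 4 CACCC boxes in human and 2 in mouse and no GATAA in either. Their longest shared run was 42 bases with 1 CACCC box in it, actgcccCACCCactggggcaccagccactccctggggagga, whereas the human TAL1 window shared at most 7 bases with the mouse window shown and 10 with the other Tal1 window. Human TAL1 held 2 GATAA and no CACCC, the mouse Tal1 window shown held 1 of each, and the other Tal1 window held neither. Over all human promoter windows 17.4% held GATAA and 63.7% CACCC, and over all mouse windows 25.4% and 57.5%. Of the 10 human members, GFI1B, KLF1 and TAL1 held GATAA. These matches describe letters and no binding was measured.

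The next comparison asked whether m5C-IP enriched the RNA of these factors over Input, the study's measure of m5C. In K562, GATA1 rose in m5C-IP, LMO2 and RUNX1 fell, and the other 7 members did not pass the test. That made 3 of 10 called, beside 31.5% of all 14522 tested genes (15.1% called higher and 16.4% lower), so the share called among the members was near the background. All 10 members passed the filter on low counts by their Input values alone, and of the 13266 genes that did so 8.95% were called higher and 18.0% lower. The median log2 IP/Input was 0.045 over the members and -0.16 over all tested genes. The values of the 3 m5C-IP libraries lay wholly above or below those of the 3 Input libraries for 5 members (GATA1, TAL1 and ZFPM1 above, LMO2 and RUNX1 below), beside 46.8% of all genes.

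GATA1 had 85.6, 88.3 and 87.2 CPM in Input and 259, 341 and 268 CPM in m5C-IP, the latter from 28, 38 and 25 counts. Every m5C-IP value was above every Input value by a wide margin. The fitted log2 IP/Input of GATA1 was 1.54, with an SE of 0.18 and an edgeR adjusted p = 7.41e-14, and it was called higher in each of the 22 alternative settings, with log2 values from 1.13 to 2.15. The pooled CPM ratio, without further scaling, was 3.35 with an exact (Clopper-Pearson) 95% interval of 2.69 to 4.13, which covers counting error only, as do the other intervals here.

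LMO2 had 226, 222 and 223 CPM in Input and 167, 153 and 118 CPM in m5C-IP. All m5C-IP values were below all Input values, and the fitted log2 value was -0.81 (SE 0.20, edgeR adjusted p = 0.000411). RUNX1, the largest of the 10 genes, had 1456, 1445 and 1481 CPM in Input and 1269, 1042 and 1192 CPM in m5C-IP, which gave a log2 value of -0.53 (SE 0.088, edgeR adjusted p = 1.28e-07). Both calls were lost when Input was thinned to the m5C-IP depth (LMO2 -0.23, RUNX1 0.014) and when any 1 Input library was left out, which also cut the tested genes to between 3721 and 3726 (LMO2 -0.37 to -0.36, RUNX1 -0.099 to -0.083). With the list of tested genes kept as it was, both were called without any 1 library.

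TAL1 had 154, 145 and 151 CPM in Input and 157, 207 and 204 CPM in m5C-IP, and ZFPM1, the cofactor of GATA1, 494, 509 and 493 CPM against 584, 521 and 569 CPM. Although neither gene's groups overlapped, their log2 values were 0.13 (SE 0.19, edgeR adjusted p = 0.668) and -0.048 (SE 0.12, edgeR adjusted p = 0.811). ZFPM1 took opposite signs under other settings and was called lower with a correction for exonic GC content (-0.49) and higher without 1 Input library (0.38 to 0.41). TAL1 and LDB1 were called higher without any 1 Input library (0.54 to 0.59 and 0.69 to 0.73).

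Among the remaining members the m5C-IP and Input values overlapped. KLF1, with only 3, 7 and 5 counts in m5C-IP, had a log2 value of 0.60 (SE 0.41) and a pooled CPM ratio of 1.75 (95% interval 0.974 to 2.90). LDB1 had 0.27 (SE 0.21), NFE2 0.092 (SE 0.24), GATA2 -0.0024 (SE 0.23) and GFI1B -0.20 (SE 0.31), and their adjusted p-values ran from 0.342 to 0.996 in edgeR. For GATA2 the pooled CPM ratio of 1.15 had a counting interval of 0.814 to 1.58.

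**Figure D2:**
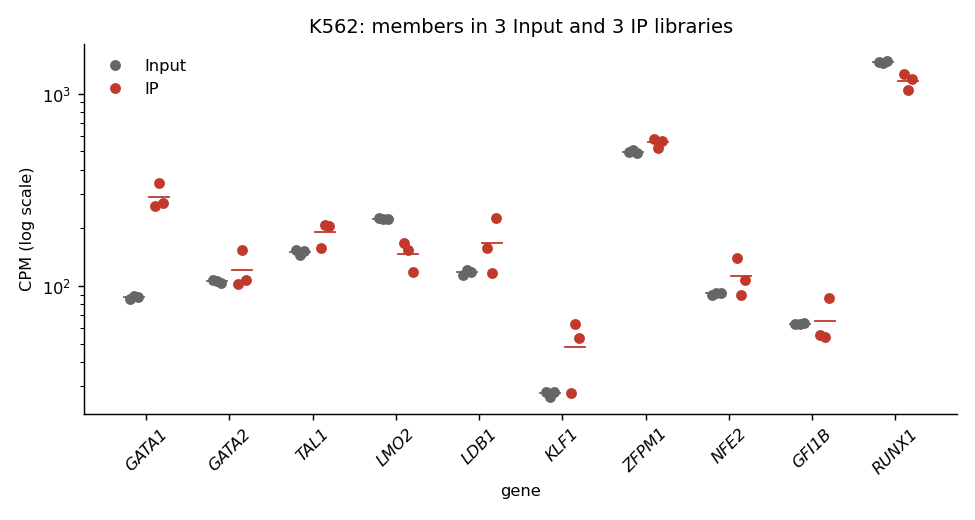
CPM (vertical axis, log scale) of the 10 members in the K562 Input (grey) and m5C-IP (red) libraries, 1 point per library with a line at the mean of 3. GATA1 rises from 85.6 to 88.3 CPM in Input to 259 to 341 CPM in m5C-IP, and LMO2 and RUNX1 lie lower in m5C-IP.

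Over all genes of both lines, log2 IP/Input was lower where the Input level was higher, so the members are also given beside genes of like Input level. Spearman's rho between Input CPM and log2 IP/Input was -0.48 over 14459 K562 genes and -0.80 over 20237 mESC genes, a description in which Input enters both measures. In K562 the median log2 value went from 3.76 in the lowest decile of Input CPM to -0.63 in the highest. GATA1 lay in the eighth decile, where the median was -0.41 and its 1.54 stood above 99.2% of genes. RUNX1, ZFPM1 and LMO2 lay in the highest decile, above 59.6%, 89.8% and 31.3% of its genes, so that RUNX1, although called lower, was 0.093 above the median of genes with like Input level. Of the 10 members, 9 were above the median of their decile and LMO2 was 0.18 below it. GATA1 stood out less by other properties. Among genes of like exonic GC, whole-span GC, span or exonic share of span, it was above 80.7%, 82.8%, 88.0% and 91.2%. Of 5 properties set against log2 IP/Input over the 10 K562 members, gene span had the Spearman's rho farthest from 0, at -0.81, beside -0.017 over all tested genes. Over all tested genes the relation was not monotone. The median log2 value fell from 0.13 in decile 1 of span to -0.40 in decile 8 and was 0.21 in decile 10. In mESC the rho with span was 0.17 over 9 members and 0.13 over all tested genes. Whether Input level or span has a part in the called values was not tested.

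In mESC, Runx1 and Gata2 rose in m5C-IP and Ldb1 fell. These 3 members passed the filter on low counts by Input alone, that is, with at least 0.676 CPM in all 3 Input libraries, and of the 14941 genes that did so 20.7% were called higher and 57.0% lower. The m5C-IP values did not overlap the Input values for any of the 3, beside 75.3% of all tested genes. The other 6 tested members, Gata1, Tal1, Lmo2, Nfe2, Gfi1b and Klf1, were below this level in at least 2 Input libraries and entered the test through their m5C-IP values, where a single count is past it. A gene that enters in this way is high in m5C-IP by selection: of 5303 such genes 94.0% were called higher and none lower. All of these 6 but Klf1 were called higher too, which is given as a description, since the direction follows from how they entered. With no filter the same count of members, 8 of 9, was called, beside 22395 of the 34804 genes then tested, with 56.6% of those calls higher. Of all 20244 tested genes 82.0% were called, 39.9% higher and 42.0% lower.

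Runx1 was the member with the most reads behind its rise. It had 188, 206 and 232 counts in Input, or 6.48, 6.23 and 6.68 CPM, and 55, 120 and 95 counts in m5C-IP, or 116, 204 and 160.4 CPM. Every m5C-IP value was far above Input, and the log2 value was 3.67 (SE 0.19, edgeR adjusted p = 7.14e-11), called in each of the 21 alternatives with values from 3.23 to 5.17 (4.32 to 4.37 without any 1 Input library). Within its decile of Input CPM, where the median was 0.40, it stood above 95.0% of genes. Among genes of like exonic GC, whole-span GC, span or exonic share of span, it was above 75.3%, 79.2%, 67.8% and 63.1%.

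Ldb1, the only member abundant in mESC, had 106, 101 and 104 CPM in Input and 97.2, 64.6 and 55.7 CPM in m5C-IP. This gave a log2 value of -1.52 (SE 0.16, edgeR adjusted p = 2.58e-07), beside a median of -1.68 in its decile, and -0.33 with an edgeR adjusted p = 0.276 when Input was thinned to the m5C-IP depth. Without any 1 Input library Ldb1 was at -0.84 to -0.80, still called. Scaling alone set about 1 log2 unit of such values: with library size alone the median of all mESC genes was 0.83, and the share of calls that were higher was 67.9% instead of 48.7%. In K562 the same scaling moved the median to 0.11 and the share of higher calls from 47.9% to 70.2%. GATA1 in K562 was called higher, and Ldb1 in mESC lower, under both.

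The mouse genes that entered through m5C-IP rested on few counts. Tal1 had 5, 7 and 10 counts in Input and 15, 5 and 2 in m5C-IP, a pooled CPM ratio of 58.5 (exact 95% interval 30.9 to 111) and a log2 value of 4.93 (SE 0.76), which was 3.70 without m5C-IP replicate 1. Lmo2 had 16, 15 and 11 against 14, 3 and 14 counts (ratio 43.2, interval 26.3 to 70.4), and Nfe2 7, 14 and 11 against 6, 9 and 6 (ratio 38.4, interval 21.1 to 68.7). Their log2 values of 4.45 (SE 0.60) and 4.27 (SE 0.57) lay within 0.39 of the median of 4.66 among genes of their Input decile, as did that of Tal1. Lmo2 was at 5.32 without Input replicate 1 and 5.15 without Input replicate 2. Gfi1b, with 5, 1 and 4 Input counts and 9, 2 and 1 in m5C-IP, was at 5.12, beside a median of 6.42 in its decile, and at 3.60 without m5C-IP replicate 1 on the unchanged list of tested genes. The m5C-IP libraries spread widely, 1.69 to 19.01 CPM for Gfi1b and 3.38 to 31.7 CPM for Tal1, whereas Nfe2 lay between 10.1 and 15.3 CPM.

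Of the GATA pair, Gata2 had 50, 58 and 77 Input counts and 8, 12 and 5 in m5C-IP, with a log2 value of 2.02 (SE 0.44, edgeR adjusted p = 0.000499), beside a median of 1.47 in its decile, and 2.64 to 2.83 without any 1 Input library. Gata1 had 22, 21 and 20 Input counts and 1, 8 and 1 in m5C-IP. Its log2 value of 2.21 (SE 0.73, edgeR adjusted p = 0.0112) rested on m5C-IP replicate 2, without which it was 0.57 with an edgeR adjusted p = 0.641. Klf1, with 1, 1 and 2 counts in m5C-IP, had 1.17 (SE 0.85, edgeR adjusted p = 0.209), was called only with library size scaling alone (2.17, edgeR adjusted p = 0.0405), and had a pooled CPM ratio of 4.50 (exact 95% interval 1.18 to 12.2). The gene model Gm20388, to which reads over Zfpm1 were counted, had a log2 value of 2.21 (SE 0.063, edgeR adjusted p = 9.74e-14), and which part of it came from Zfpm1 cannot be told from these counts.

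**Figure D3:**
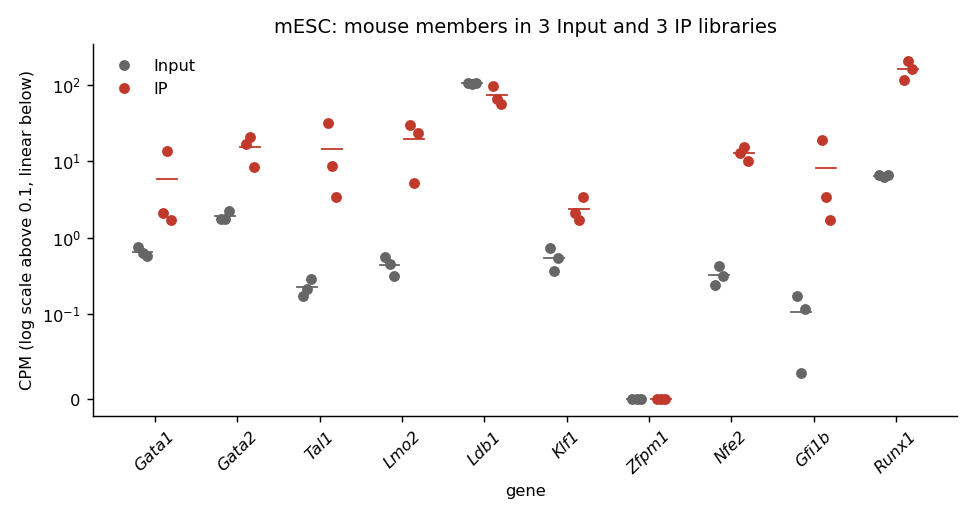
CPM of the mouse members in the mESC Input (grey) and m5C-IP (red) libraries, 1 point per library with a line at the mean of 3, on a scale that is logarithmic above 0.1 CPM and linear below. Ldb1 is the only member near 100.0 CPM in Input, Runx1 goes from about 6 CPM to between 116 and 204 CPM, and Zfpm1 is listed at 0 in all libraries.

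The difference in log2 IP/Input between the lines was tested as the interaction of line and library kind over all 12 libraries. As for Input levels, cell line, species and gene annotation cannot be told apart in this difference. Of the 9 members tested, 7 were called, 6 of them lower in K562 than in mESC and 1 higher, beside 30.9% of 14242 genes called (16.5% higher and 14.5% lower). The lower ones were LMO2 (-5.87, SE 0.59), GFI1B (-5.84, SE 0.95), TAL1 (-5.34, SE 0.71), RUNX1 (-4.85, SE 0.20), NFE2 (-4.79, SE 0.58) and GATA2 (-2.64, SE 0.49). Each stayed called in all 34 alternatives, though the values moved, from -6.52 to -4.09 for LMO2, -6.73 to -4.35 for GFI1B, -6.03 to -3.69 for TAL1, -5.37 to -4.55 for RUNX1, -5.48 to -4.54 for NFE2 and -3.76 to -2.25 for GATA2. Without mESC m5C-IP replicate 1, GFI1B was at -4.39 and TAL1 at -4.22. Leaving out 1 mESC Input library gave -6.73 for GFI1B and -6.52 for LMO2 (replicate 1), -5.48 for NFE2 (replicate 2), and -6.03 for TAL1 and -3.27 for GATA2 (replicate 3). Over the 9 members the median was -4.79, beside 0.17 over all tested genes. On the mouse side LMO2, GFI1B, TAL1 and NFE2 rested on the few counts given above. The 6 genes called lower also had at least 41.9-fold more Input per kb of span in K562. So did GATA1 (322-fold) and KLF1 (61.5-fold), whose difference was not called. The part of Input level in the difference was not tested.

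LDB1 was the 1 member with a higher value in K562 (0.27) than in mESC (-1.52), with an interaction of 1.161 (SE 0.32, edgeR adjusted p = 0.00647), and this call was lost with RLE scaling (0.72), with thinned Input (1.04), without K562 m5C-IP replicate 3 (0.92) and without any 1 Input library (0.65 to 0.69). GATA1 was called higher in K562, but mouse Gata1 entered the mESC test through m5C-IP, so its direction there is not set beside that of K562. The GATA1 interaction of -1.32 (SE 0.67, edgeR adjusted p = 0.140) did not pass. It was 0.34 without mESC m5C-IP replicate 2 and was called lower by DESeq2 (-1.78), without mESC m5C-IP replicate 3 (-1.84) and without mESC Input replicate 1 (-1.91). For KLF1 it was -1.21 (SE 0.97, edgeR adjusted p = 0.380).

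**Figure D4:**
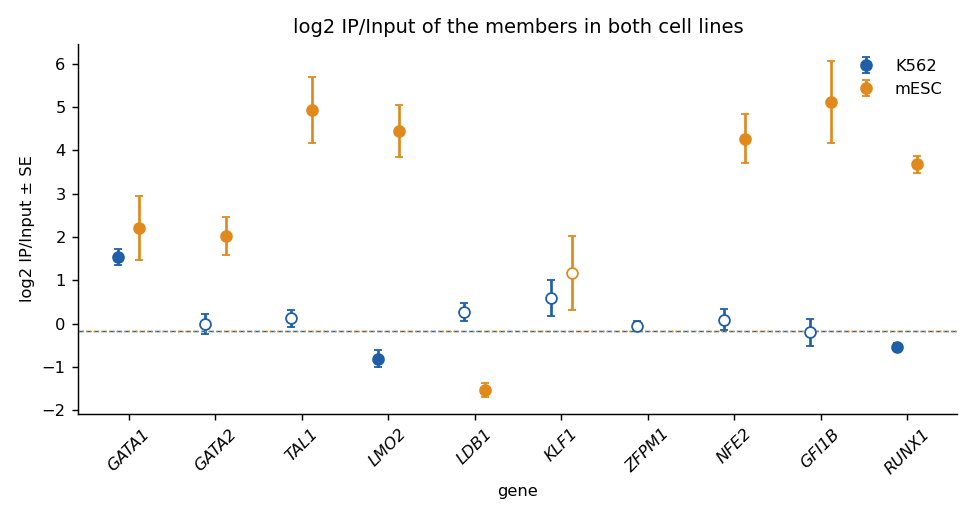
Log2 IP/Input with its SE for the members in K562 (blue) and mESC (orange), each from 3 m5C-IP and 3 Input libraries, filled where the adjusted p is under 0.05. The lines at -0.16 and -0.17 are the medians of all tested genes in K562 and mESC. Only GATA1 is high in K562 (1.54), whereas 7 members are high in mESC, 5 of which entered the test through m5C-IP alone, and Ldb1 is low (-1.52).

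**Figure D5:**
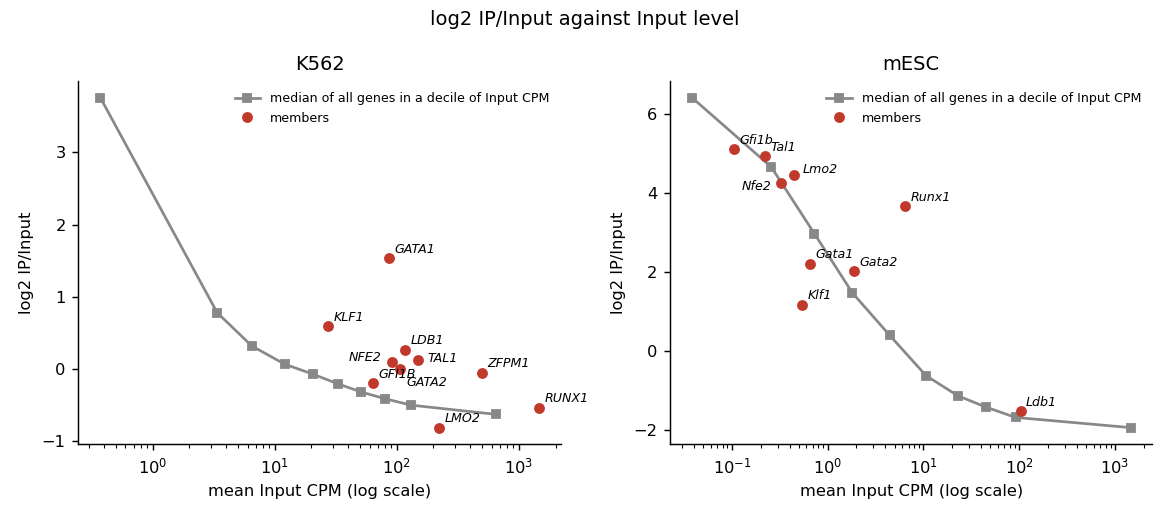
Log2 IP/Input (vertical axis) against mean Input CPM (horizontal axis, log scale) for the members (red) in K562 and mESC, with the median of all tested genes in each decile of Input CPM (grey squares, placed at the geometric middle of the decile). GATA1 in K562 (1.54 beside a decile median of -0.41) and Runx1 in mESC (3.67 beside 0.40) lie farthest above the line of medians.

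Peak lists were at hand for the 3 mESC m5C-IP libraries. Over the 10 mouse members lay 12 distinct peaks, 6 of them in Runx1, 2 in Zfpm1 and 1 each in Gata1, Tal1, Lmo2 and Gfi1b, and none in Gata2, Klf1, Nfe2 or Ldb1. Thus 6 of 10 members had a peak in at least 1 replicate, beside 41.2% of tested genes. No member had a peak in all 3 replicates (2.22% of tested genes did), and 1 had one in 2 replicates (7.29% of tested genes did). All 6 Runx1 peaks were intronic and in 1 replicate each, 3 of them on the gene's strand. Among peaks over tested genes of 1 strand, 40.7% were on the gene's strand.

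The peak in 2 replicates, found in m5C-IP replicates 2 and 3, lay in a coding exon of Zfpm1, with 74.0% GC, 13.3% repeat-masked bases and 1 CNGGG, the sequence context of m5C sites set by NSUN2, on the recorded strand.

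A pair of Runx1 peaks, picked after their values were seen, is shown because Runx1 had the most reads behind its rise in mESC m5C-IP and the most peaks, and because neither peak holds a repeat-masked base. Capitals mark CNGGG, read on the recorded strand. The Runx1 peaks lie at chr16:92627043-92627192 (minus strand, that of the gene) and chr16:92809326-92809475 (plus strand), both in replicate 1 and in introns, by GRCm38.
Runx1, first peak: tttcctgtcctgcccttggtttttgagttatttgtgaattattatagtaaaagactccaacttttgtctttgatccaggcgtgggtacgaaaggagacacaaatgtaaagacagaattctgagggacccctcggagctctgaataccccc
Runx1, other peak: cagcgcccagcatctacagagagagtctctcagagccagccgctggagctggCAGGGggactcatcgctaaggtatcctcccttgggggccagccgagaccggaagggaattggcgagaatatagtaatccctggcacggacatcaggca
These peaks had 43.3% and 60.0% GC, with no CNGGG in the first and 1 in the other. Over all 30784 peaks of 150 bases, 51.7% held CNGGG. Both Runx1 peaks shown came from the replicate with the fewest Runx1 counts (55 of 270).

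Other genes of the same circuit were taken as 3 lists. Among 20 protein partners of the members, such as the TAL1 partners TCF3 and TCF12 and the LDB1-binding SSBP proteins, 2 rose, 7 fell and 11 did not pass in K562 m5C-IP, with a median log2 value of -0.19, beside 15.1% higher, 16.4% lower and a median of -0.16 over all tested genes. In mESC 4 rose and 15 fell, at a median of -1.64, beside 20.7% higher, 57.0% lower and a median of -1.07 over the genes that passed the filter by Input alone, as these 19 did. TCF3 rose by 0.41 (SE 0.17) from 6000 Input and 85 m5C-IP counts, and the coactivator EP300 fell by 1.07 (SE 0.22). MAFF, a small MAF protein that pairs with NFE2, fell by 2.02 (SE 0.82) on 2 m5C-IP counts. CHD4 rose by 2.31 (SE 0.80) on 6 m5C-IP counts, with 83.9% of its span under a same-strand gene. Between the lines, Input of 10 partners was higher in K562 and of 9 lower (40.0% and 53.8% of all tested genes), with CBFA2T3 (9.75) and LYL1 (5.86), blood-restricted partners of the complex, at the upper end. CHD4 (-8.46) and KDM1A (-2.41) were at the lower end on the log2 scale by exonic length. The CHD4 span lay 83.9% under a same-strand gene in K562 but 0.57% in mESC, so its -8.46, although among the 9 lower, was not read as a level.

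Among 28 erythroid target genes, 26 were tested in K562. Of the 25 that passed the filter by Input alone, 1 rose, 8 fell and 16 did not pass the test, with a median of -0.29, beside 8.95% higher, 18.0% lower and a median of -0.26 over all such genes. In mESC 19 were tested and 17 passed by Input alone, of which 3 rose and 10 fell, at a median of -0.66, beside 20.7%, 57.0% and -1.07 over all such genes. UROD, an enzyme of haem synthesis, rose by 1.08 (SE 0.25), and UROS, another haem enzyme, fell by 1.28 (SE 0.31). In Input, 23 of 26 were higher in K562 and 3 lower, at a median log2 difference of 2.92, beside 40.0% higher, 53.8% lower and a median of -0.37 over all tested genes. RHAG (12.24) and KEL (10.56), both red cell membrane proteins, were highest, TFRC, the transferrin receptor, was lower (-1.17), and XK was listed at 0 in K562, wholly under a same-strand gene.

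Among 20 factors of other blood lineages, 13 were tested in K562. Of the 10 that passed the filter by Input alone, none rose, 2 fell and 8 did not pass the test (edgeR), at a median of -0.15, beside 8.95% higher, 18.0% lower and a median of -0.26 over all such genes. The other 3 entered through m5C-IP and were called higher, as were 79.9% of all 1256 such genes. Among them GFI1, the paralogue of GFI1B in myeloid cells, had a log2 value of 4.26 (SE 0.64) from 58 Input and 12 m5C-IP counts, and PAX5, the B cell factor, 3.72 (SE 0.90) from 35 and 5, both in the lowest decile of Input CPM, with its median of 3.76. MECOM fell by 1.03 (SE 0.26) and ETV6 by 0.83 (SE 0.15), both targets of leukaemic rearrangement with 4601 and 14231 Input counts. In mESC 18 were tested, and of the 10 that passed by Input alone 6 rose and 3 fell, at a median of 1.26, beside 20.7%, 57.0% and -1.07 over all such genes. In Input, 8 of 14 were higher in K562 and 4 lower, beside 40.0% and 53.8% of all tested genes, with SPI1 (6.59) and CEBPB (4.82) highest, and EBF1 (-4.70) and GATA3 (-2.25) lowest, on the log2 scale.

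By Euclidean distance of log2(CPM + 1) over the 12 libraries, among the 16425 genes that share a symbol between the lines, the genes nearest to GATA1 that were not members were TMEM273 (2.57), BTNL9 (3.00) and FXYD5 (3.09). TMEM273 had a mean of 169.9 CPM in K562 Input and 209.95 CPM in K562 m5C-IP, and 0.0115 and 2.97 CPM in mESC.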

How the data were processed

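The members and the gene lists were chosen with earlier results of these data known. Each library's file, as deposited, lists unnormalized counts of reads by gene and ends in HTSeq summary lines, and each mESC IP replicate has a list of peak positions. The submitters' processing notes name Trimmomatic 0.39, HISAT2 2.1.0, SAMtools 1.16.1 and MACS2 with the builds mm10 and hg38. Groups came from the library titles, with which the antibody label disagrees for mESC IP and K562 Input. Summary lines (19.0% to 71.7% of records) stayed out, and genes were placed by GENCODE M21 and 44, matching 99.9% and 99.2% of identifiers.

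Counts were tested in edgeR 4.0.16 (quasi-likelihood, TMM scaling, filterByExpr with 10 counts at the median library size in 3 libraries, or 1.89 CPM in K562 and 0.676 in mESC, Benjamini-Hochberg adjustment at 0.05) across all genes, each line alone, both lines with an interaction over shared symbols, and Input alone with an offset for exonic length, and the code was tested on simulated data. Whole span as length, and CPM per kb of span, were added after seeing the data. edgeR's common coefficient of variation was 0.00988 (K562) and 0.0583 (mESC). The K562 Input replicates 1 and 2 (chi-square per degree of freedom 0.912) and 1 and 3 (0.918) differed by no more than counting error over genes, but by 36.8 and 21.1 per degree of freedom over 20 bins of GC content, and were kept as 3 libraries. Same-numbered Input and IP libraries correlated only weakly, at -0.00572 to 0.0280. Even so, the best-matching IP library had the same number for all 3 mESC Input libraries and for K562 Input replicates 2 and 3. Whether the numbers pair the libraries was left undecided, and the main fit did not pair them. Alternatives were RLE and library-size scaling, DESeq2 1.42.0, no filter, GC correction, a replicate block, thinned Input and each library left out. Members, and in each list the called genes at the ends (with at least 5 CPM for IP/Input), were named. Spike-ins and any K562 peaks were not used here. Some genes and sequences are not reported here.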

Additional observations from a re-analysis of the deposited data

Results flagged for a closer look

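The IP/Input difference between K562 and mESC passed the interaction test for 7 of 9 members. It was -2.64 for GATA2, -5.34 for TAL1, -5.87 for LMO2, -4.79 for NFE2, -4.85 for RUNX1 and -5.84 for GFI1B, all lower in K562, and 1.161 for LDB1, higher in K562, on the log2 scale (edgeR, K562 minus mESC). Of all tested genes 30.9% passed. On the mouse side Tal1, Lmo2, Nfe2 and Gfi1b rested on few counts, 10 to 42 in Input and 12 to 31 in m5C-IP over the libraries of a group. LDB1 was called in 24 of 34 alternatives.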

How the results depend on the processing

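In K562, 3 of 10 members were called, beside 31.5% of all tested genes. With Input thinned to the IP depth, where fewer genes could be tested, 1 (GATA1) of 7 was called, beside 557 of 3213 genes. Without 1 library the count was 3 to 4. Members near 0 changed sign, none of them called except where the report says so. GATA2 was 0.12 with DESeq2 and with RLE scaling, 0.27 with library size alone and 0.68 with thinned Input, and ZFPM1 0.072, 0.072, 0.22 and 0.31, GFI1B 0.072 with library size alone and RUNX1 0.014 with thinned Input. TAL1, NFE2 and LDB1 were -0.093, -0.13 and -0.050 with GC correction, -0.28, -0.21 and -0.070 with GC correction over whole spans (added after seeing the data), -0.092, -0.13 and -0.047 with GC correction and replicate block, and -0.22, -0.25 and -0.075 with no filter. Without 1 library GATA2 ran from -0.30 to 0.45, TAL1 from -0.033 to 0.59, NFE2 from -0.18 to 0.54, ZFPM1 from -0.16 to 0.41 and LDB1 from -0.069 to 0.73, and on the unchanged gene list GATA2 reached 0.11, 0.076 and 0.0069 and NFE2 -0.10. In mESC, 8 of 9 were called, beside 82.0% of all tested genes, and 6 of the 9 had entered the test through their IP values. With library size alone 9 were called (Klf1 2.17, edgeR adjusted p = 0.0405), beside 14760 of 20244 genes. With thinned Input 1 of 2 tested was called, beside 6128 of 10313 genes. Without 1 library 4 to 8 were called, 4 being all that could then be tested. GATA1's difference between the lines was 0.17 with thinned Input, 0.36 without mESC IP replicate 2 on the unchanged list, and -1.91 to 0.34 without 1 library. Members with a peak numbered 0 in all 3 replicates and 1 in at least 2, beside 2.22% and 7.29% of tested genes, and 0 to 1 with 1 replicate left out. Without 1 library the count of members that differed between the lines was 6 to 8, against 7 in the main fit, where 30.9% of all tested genes were called. The replicate block left the counts of called members at 3, 8 and 7 and changed no member's call by itself. With it 3940 of 14522 genes were called in K562, 15434 of 20244 in mESC and 4499 of 14242 for the difference. Input levels kept all 9 calls in each alternative, beside 93.8% of all tested genes called in the main fit. Few IP counts limited precision, with SEs of 0.088 to 0.41 for the members in K562 and 0.16 to 0.95 in mESC. Summing the K562 Input libraries to 1 sample left the count at 3.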
